A study of Homo sapiens with 6 samples.

Results

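Tetraspanins are small proteins that cross the membrane several times and hold 2 loops outside the cell, the larger of which carries a conserved cysteine motif. They gather integrins, proteases and growth factor receptors into patches of the membrane, and several of them, CD9, CD63 and CD81 above all, are the usual surface markers of extracellular vesicles. In the bladder the family is best known through the uroplakins UPK1A and UPK1B, tetraspanins of the urothelial plaque, and through CD82 and CD151, which bear on cell migration. The 31 genes described here are family members in a table of 54261 gene symbols. They were chosen by symbol: TSPAN followed by a number only, or 1 of 9 older names (CD9, CD37, CD53, CD63, CD81, CD82, CD151, ROM1 and PRPH2). UPK1A and UPK1B fall outside these symbols and are described with the partner genes. No measured value enters that rule, but the family was selected with earlier results of the same comparison known, so every difference below is a description of these libraries.

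RNA was sequenced from T24, an established human bladder cancer cell line. There were 3 libraries of cells infected with a control lentivirus carrying ZsGreen and puromycin resistance, and 3 libraries of cells infected with a lentivirus of the same backbone carrying hairpin number 2 against MTHFD2, a mitochondrial enzyme of folate metabolism. Both populations had been selected with puromycin, and a single hairpin was sequenced, so the hairpin and the loss of MTHFD2 cannot be told apart. Replicates carry the numbers 1 to 3, and nothing says whether they were separate cultures, so p-values measure the spread between these libraries, which may be technical.

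Library totals lay between 17801990 and 19978392 counts. MTHFD2 itself had 3241, 3613 and 3417 control counts against 538, 667 and 686 after knockdown, so the labels fit the target. Of 11 urothelial and epithelial markers 4 were tested: KRT8 and KRT18 fell, while KRT7 (2663 to 4598 counts) and PPARG (287 to 352) did not pass (edgeR adjusted p = 0.104 and 0.836). The other 7 had at most 10 counts in any library, among them EPCAM (4 to 10 counts), UPK2 (0 to 6), GATA3 (2 to 5) and KRT5 (0 to 1). Among all genes tested, 9.71% were higher and 7.58% lower after knockdown at an edgeR adjusted p under 0.05. Of 12 fibroblast markers, 7 were tested and 5 rose. Their summed level was 7.81, 10.6 and 8.92 CPM (counts scaled to the size of the library) in the control libraries and 51.6, 13.1 and 43.7 CPM in knockdown replicates 1, 2 and 3, with none of the 12 at 0 throughout. Knockdown replicate 2 is therefore also set alone against the controls below.

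Of the 31 genes, 23 had enough counts to be tested and 8 did not. Across all 13896 genes tested, 2402 passed an edgeR adjusted p of 0.05, or 17.3%, with 9.71% higher and 7.58% lower after knockdown. Among the 23 tetraspanins 9 passed: TSPAN7, TSPAN13, TSPAN31, TSPAN12, TSPAN9 and TSPAN6 rose, and TSPAN4, CD82 and CD9 fell. The median log2 fold change was 0.17 over the 23 and 0.01 over all genes tested. In 12 of the 23 the knockdown libraries lay wholly above or wholly below the controls, which held for 39.1% of all genes tested. With knockdown replicate 2 alone against the controls 8 of 23 passed, where 30.0% of all genes did. The family thus moved in both directions, and the larger changes were on the rising side. In libraries of whole cultures, fewer cells expressing a gene and less RNA per cell cannot be told apart.

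**Figure D1:**
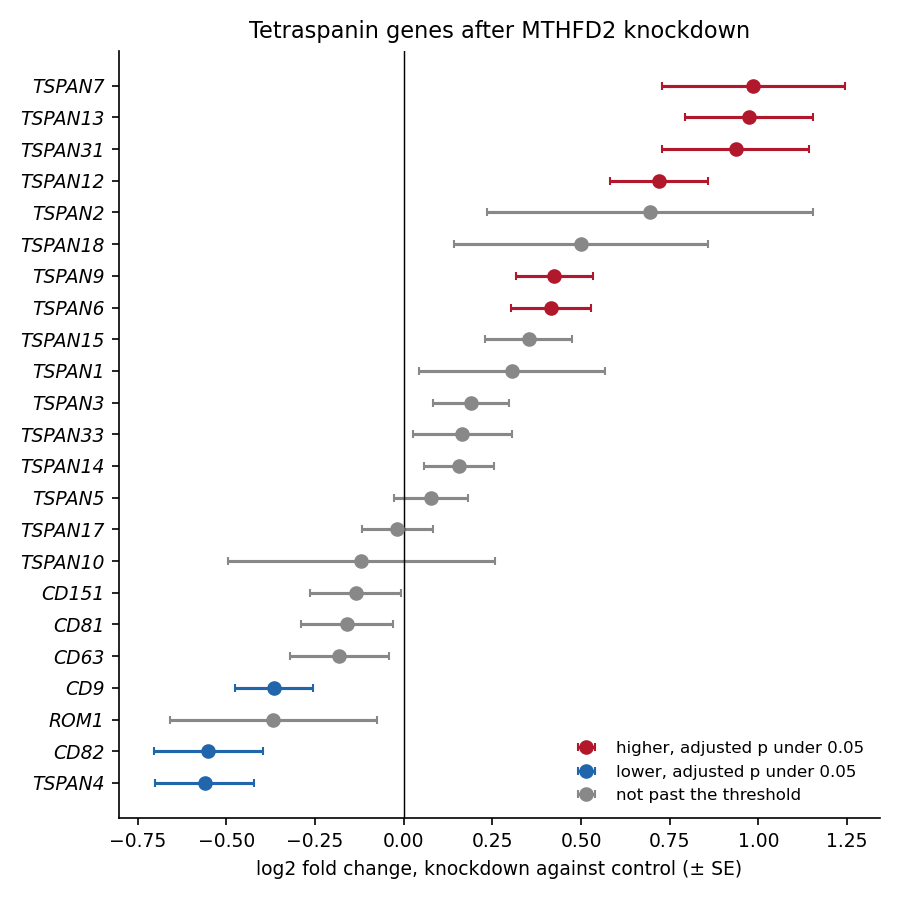
Log2 fold change of the 23 tested tetraspanin genes, knockdown against control (points, with bars of 1 SE), ordered by size; red and blue points passed an edgeR adjusted p of 0.05. The range runs from -0.56 for TSPAN4 to 0.99 for TSPAN7.

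The level of the family in T24 rested on a few members. Reads were scaled to library size and annotated exonic length (RPKM), a scale that allows genes to be set side by side. CD63 stood at 146 ± 20.9 and CD151 at 124 ± 15.02 in the control libraries (SD, n = 3). Both were highest in control replicate 3, so these SDs do not judge the order of the 2, which was not tested. CD9 followed at 76.0 ± 2.94 RPKM. A gap then led to TSPAN17 at 26.5 ± 1.89, CD81 at 20.8 ± 2.67 and TSPAN4 at 19.1 ± 2.80 RPKM. The last pair was also highest in control replicate 3, and its order was not tested either. TSPAN3 (10.5 ± 0.323 RPKM), TSPAN6 (9.29 ± 0.196), TSPAN15 (7.79 ± 0.772), TSPAN33 (6.69 ± 0.449) and TSPAN5 (5.58 ± 0.181) formed the middle of the order. Below them TSPAN9, TSPAN12, CD82, TSPAN13 and TSPAN14 lay between 4.51 and 2.72 RPKM, and TSPAN1, TSPAN31, ROM1 and TSPAN7 between 0.832 and 0.488. TSPAN18, TSPAN10 and TSPAN2 were at 0.141 RPKM or less. Exonic length here joins the exons of all annotated isoforms, so genes with long rare exons, such as TSPAN14 with 17888 bases, are understated.

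**Figure D2:**
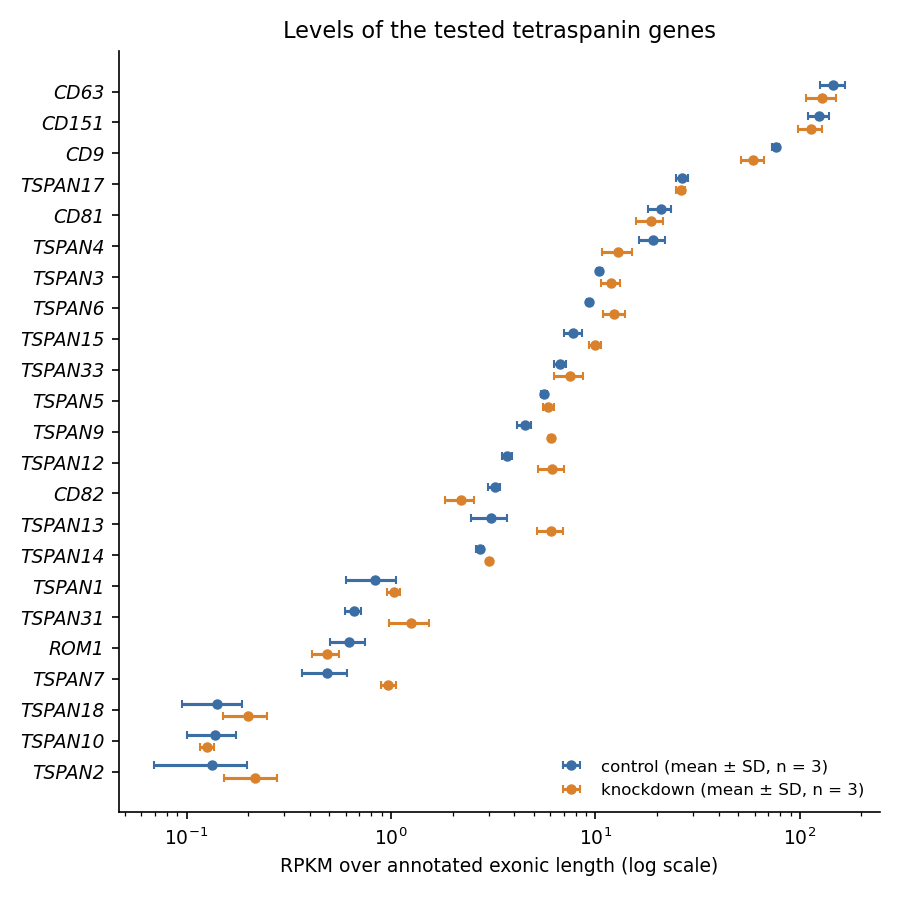
Level of each tested tetraspanin gene in RPKM over annotated exonic length, on a log axis, as the mean of 3 libraries with bars of 1 SD for control (blue) and knockdown (orange). CD63, CD151 and CD9 sit above 50 RPKM in both groups. TSPAN13 has a control mean near that of CD82 (3.07 ± 0.624 against 3.21 ± 0.219 RPKM) and lies above it after knockdown (6.04 against 2.20 RPKM). The control bars of the 2 genes overlap, and their order was not tested.

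The 8 genes that could not be tested were nearly silent. PRPH2, TSPAN16 and TSPAN32 had no count in any library. TSPAN8 and TSPAN11 had 1 count each in all, CD37 had 2, CD53 had 5 and TSPAN19 had 6. A count of 0 allows up to 3 counts in a library, or 0.149 to 0.171 CPM at these depths, so low transcription could not be seen. CD37, CD53 and TSPAN32 are tetraspanins of leukocytes, and 12 general leukocyte markers summed to 1.74 to 3.88 CPM in a library. Of these PTPRC had 0 to 4 counts, while CD68 had 21 to 46, ITGAM 2 to 19, CD14 3 to 10 and LYZ 3 to 9. Only CD68 could be tested, and it did not pass (edgeR adjusted p = 0.999). PRPH2 and ROM1 shape the disc rim of photoreceptors. ROM1 was measurable at 24, 27 and 36 counts in the control and 23, 28 and 20 in the knockdown libraries, with overlapping groups (log2 fold change -0.37 ± 0.29, SE; edgeR adjusted p = 0.399). About 24.8% of its annotated exonic bases are shared with EML3 on the opposite strand (880 counts on average), and the strandedness of the counting is unknown.

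The largest rises were in members of low to middle level. TSPAN13 (GRCh38 chromosome 7, 16753535 to 16784536, plus strand) had 138, 142 and 99 control counts, and 234, 261 and 289 in the knockdown libraries. All 3 knockdown libraries lay above all 3 controls, and control replicate 3 was the lowest. The group means were 6.84 ± 1.39 and 13.4 ± 1.94 CPM, a difference of 0.97 ± 0.18 (SE) on the log2 scale (edgeR adjusted p = 0.00482). Its adjusted p stayed at or under 0.0211 whichever library was left out, and the log2 fold change was 0.94 with knockdown replicate 2 alone.

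TSPAN12 (chromosome 7, 120787320 to 120858402, minus strand) is a coreceptor for Norrin at the receptor Frizzled-4. Its control counts were 230, 243 and 221 against 361, 395 and 447 in the knockdown libraries. The groups were clearly apart, with the spread on the knockdown side the wider one. The change from 12.5 ± 0.697 to 20.6 ± 3.06 CPM gave a log2 fold change of 0.72 ± 0.14 (edgeR adjusted p = 0.00591, at most 0.0295 with any library left out). FZD4, the gene of Frizzled-4, rose as well, from 6.08 ± 1.54 to 12.3 ± 2.66 CPM (1.02 ± 0.21 on the log2 scale, edgeR adjusted p = 0.00843). LRP5, the other coreceptor, was at 44.0 ± 0.791 and 42.7 ± 9.40 CPM, and the ligand gene NDP had no count in any library.

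TSPAN31 (chromosome 12, 57738013 to 57750211, plus strand), also known as SAS because it is amplified in sarcomas together with its neighbour CDK4, had control counts of 65, 61 and 70 and knockdown counts of 102, 153 and 140. Knockdown replicate 1 was the lowest of its group but still above every control. The log2 fold change was 0.94 ± 0.21 (edgeR adjusted p = 0.0115, at most 0.0401 with any library left out). CDK4 runs toward TSPAN31 from the opposite strand (57747727 to 57756013), and 1369 of the annotated exonic bases of TSPAN31, 25.4%, lie within CDK4 exons. CDK4 held 2681 to 4571 counts, and its log2 fold change was -0.41 ± 0.13 (edgeR adjusted p = 0.0455). That call was not followed through the fits leaving out a library. The part of CDK4 reads in the TSPAN31 counts was not tested. Reads from the shared stretch cannot be told apart without strand.

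TSPAN7 (X chromosome, 38561370 to 38688920, plus strand), a gene linked to X-linked intellectual disability, was scarce, with 19, 33 and 33 control counts and 55, 63 and 59 knockdown counts. Every knockdown library was above every control, and control replicate 1 was the lowest of all. Its log2 fold change of 0.99 ± 0.26 was the largest among the 31 genes chosen by symbol (edgeR adjusted p = 0.0237). The tetraspanin UPK1A, outside that rule, had a larger one of 1.72. Omitting control replicate 1 ended the call (0.79, edgeR adjusted p = 0.104), as did omitting control replicate 3 (0.0536) or knockdown replicate 2 (0.0541). An annotated gene on the same strand shares 21.7% of its exonic bases.

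TSPAN9, a tetraspanin of platelets among other cells, and TSPAN6 rose by smaller amounts from higher levels. TSPAN9 was at 33.0, 28.4 and 32.0 CPM in the control and 41.3, 42.5 and 41.6 CPM in the knockdown libraries. The knockdown libraries were nearly equal and all above the controls. TSPAN6 was at 41.1, 42.5 and 42.8 CPM in the controls against 49.9, 55.2 and 63.4 CPM, again without overlap. Their log2 fold changes were 0.43 ± 0.11 and 0.41 ± 0.11 (edgeR adjusted p = 0.0204 and 0.0282). Omitting control 1, 2 or 3 ended the call of TSPAN9 (edgeR adjusted p = 0.0654, 0.108 and 0.0618) and that of TSPAN6 (0.119, 0.0821 and 0.0817). Omitting knockdown replicate 3 ended that of TSPAN6 as well (edgeR adjusted p = 0.0532).

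**Figure D3:**
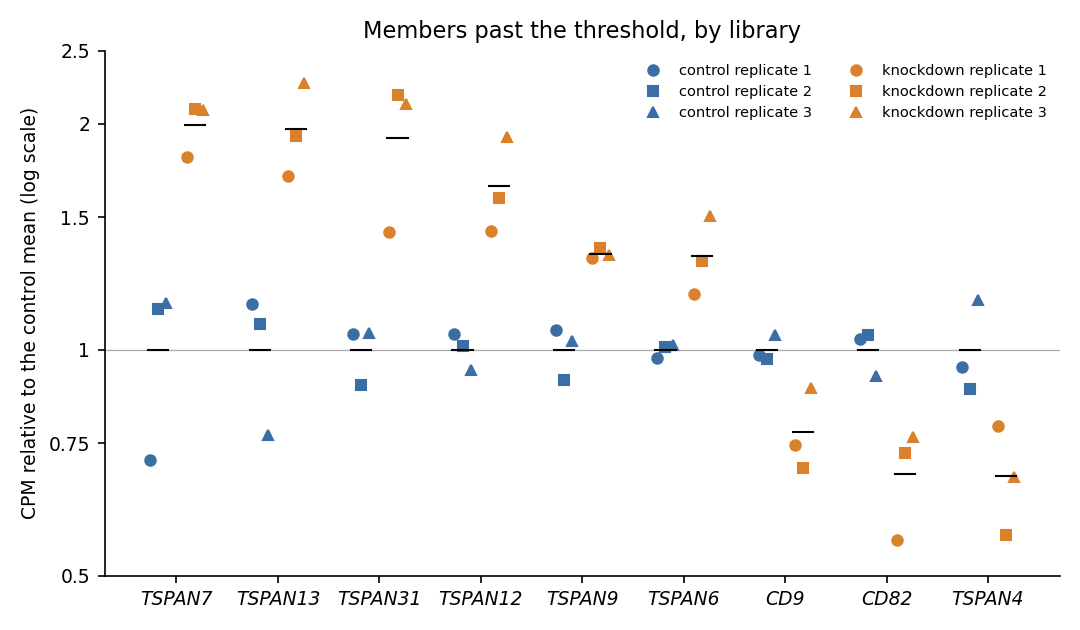
CPM of each library divided by the mean of the control libraries, on a log axis, for the 9 tetraspanin genes that passed the test; symbols mark the replicate and black lines the group means. No control point overlaps a knockdown point of the same gene, and TSPAN7 and TSPAN13 about double, while CD9 stays closest to 1 among the falls.

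Promoters are shown for the 3 rises that passed in every fit leaving out a library and, for contrast, for CD82, which fell. They run from 250 bases before to 50 bases after a RefSeq start on GRCh38.p14, and 23 of the 31 genes had an entry in that table. Capitals mark the GC box GGGCGG on either strand, the hexamer of SP-family factors: chr7:16753505-16753804 (plus strand) for TSPAN13, chr7:120858095-120858394 (minus strand) for TSPAN12, chr12:57744789-57745088 (plus strand) for TSPAN31 and chr11:44565413-44565712 (plus strand) for CD82.
TSPAN13: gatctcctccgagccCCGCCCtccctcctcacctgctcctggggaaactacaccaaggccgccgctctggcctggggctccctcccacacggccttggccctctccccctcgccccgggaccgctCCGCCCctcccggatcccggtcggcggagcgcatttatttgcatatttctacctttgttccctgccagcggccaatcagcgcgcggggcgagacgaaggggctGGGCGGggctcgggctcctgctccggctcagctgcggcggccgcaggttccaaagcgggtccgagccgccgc
TSPAN12: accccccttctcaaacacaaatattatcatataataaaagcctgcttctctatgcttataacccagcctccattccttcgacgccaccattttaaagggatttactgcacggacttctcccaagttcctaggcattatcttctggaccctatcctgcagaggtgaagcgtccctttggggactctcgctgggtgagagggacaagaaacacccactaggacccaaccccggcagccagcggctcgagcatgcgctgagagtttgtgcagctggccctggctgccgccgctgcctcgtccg
TSPAN31: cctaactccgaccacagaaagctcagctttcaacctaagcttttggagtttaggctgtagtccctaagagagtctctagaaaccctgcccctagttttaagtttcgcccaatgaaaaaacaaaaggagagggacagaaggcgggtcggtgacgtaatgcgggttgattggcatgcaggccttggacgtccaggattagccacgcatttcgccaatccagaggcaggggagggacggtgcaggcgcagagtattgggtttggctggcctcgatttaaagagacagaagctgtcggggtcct
CD82: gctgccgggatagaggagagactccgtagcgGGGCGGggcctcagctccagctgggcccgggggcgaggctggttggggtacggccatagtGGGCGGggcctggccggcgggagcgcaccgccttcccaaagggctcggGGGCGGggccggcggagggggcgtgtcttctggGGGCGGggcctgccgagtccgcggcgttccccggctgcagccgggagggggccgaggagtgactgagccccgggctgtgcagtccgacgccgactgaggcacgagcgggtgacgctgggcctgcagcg

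The GC box letters occurred 3 times in the TSPAN13 window and 4 times in that of CD82, and not in those of TSPAN12 and TSPAN31. They were present in 45.0% of 35116 promoters of this length and, counting a gene with any listed start, in 16 of the 23 tetraspanin genes. The E-box CACGTG was in 3 of the 23 (CD63, TSPAN4 and TSPAN6) and in 7.26% of all promoters. The forkhead letters GTAAACA were in 2 (TSPAN4 and TSPAN8) and in 3.42% of all, and the cyclic AMP response element TGACGTCA was in 0 of 23 and 1.85% of all. None of the 4 motifs contains another, and all were read on both strands. The GC content of the printed windows was 71.3% for TSPAN13, 54.3% for TSPAN12, 52.7% for TSPAN31 and 76.7% for CD82. Genes with several listed starts, such as TSPAN4 and CD9, had more sequence in which the letters could occur. Of the 4 rises with an entry 2 held the GC box, 1 the E-box and 0 the forkhead letters. Of the 3 falls 3 held the GC box, 1 the E-box and 1 the forkhead letters. These data do not show which start T24 uses.

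The 3 falls were in CD82, CD9 and TSPAN4. CD82 (chromosome 11, 44564427 to 44620363, plus strand), known as the metastasis suppressor KAI1, had control counts of 236, 262 and 226 and knockdown counts of 146, 188 and 186. Every knockdown library was below every control, with knockdown replicate 1 the lowest. The mean fell from 13.03 ± 0.889 to 8.90 ± 1.44 CPM, and the log2 fold change was -0.55 ± 0.15 (edgeR adjusted p = 0.0310). Omitting any 1 of the controls ended the call (edgeR adjusted p = 0.104, 0.0838 and 0.0605 in order), and so did omitting knockdown replicate 1 (0.0676) and a fit with knockdown replicate 2 alone (-0.47, 0.0646).

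CD9 (chromosome 12, 6199715 to 6238271, plus strand), needed on the egg for fusion with sperm and abundant on vesicles, was at 311, 308 and 331 CPM in the control and 236, 220 and 281 CPM in the knockdown libraries. Knockdown replicate 3 came nearest to the controls and did not reach them. The log2 fold change was -0.37 ± 0.11, or -22.4% (edgeR adjusted p = 0.0415). In CPM its means, 317 ± 12.2 and 246 ± 31.6, lay further apart than those of any other tetraspanin. Omitting control 1, 2 or 3 ended the call (edgeR adjusted p = 0.114, 0.0831 and 0.135), and so did omitting knockdown 1 or 2 (0.0952 and 0.120). With knockdown replicate 2 alone CD9 was lower by -0.53 on the log2 scale (edgeR adjusted p = 0.00677).

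TSPAN4 (chromosome 11, 842808 to 867116, plus strand), a protein of migrasomes, the vesicles left on the retraction fibres of migrating cells, had control levels of 106, 99.0 and 130 CPM and knockdown levels of 88.2, 63.2 and 75.4 CPM. The groups did not overlap, although knockdown replicate 1 was close to control replicate 2. TSPAN4 fell by 0.56 ± 0.14 on the log2 scale (edgeR adjusted p = 0.0193). Omitting control replicate 3, the highest library, ended the call (-0.44, edgeR adjusted p = 0.0870). With knockdown replicate 2 alone the log2 fold change was -0.83 (edgeR adjusted p = 0.00448).

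TSPAN4 begins 2976 bases after the end of CD151 on the same strand. POLR2L, on the opposite strand, reaches from inside CD151 into the stretch between them (837356 to 842545). It shares 257 annotated exonic bases with CD151, 6.53% of those of CD151, held 4768 counts on average and was at 296 ± 58.1 and 208 ± 47.6 CPM (edgeR adjusted p = 0.0633). Without strand, reads from the shared bases cannot be told apart. CD151, the partner of laminin-binding integrins, was at 459, 452 and 557 CPM in the control and 480, 374 and 482 CPM in the knockdown libraries, so its groups overlapped. Its log2 fold change was -0.14 ± 0.13 (edgeR adjusted p = 0.488). A neighbouring pair was found at CD82 as well: TSPAN18 begins 106101 bases further along, and its 14, 11 and 21 against 25, 28 and 16 counts overlapped between groups (edgeR adjusted p = 0.348). In neither pair did the neighbour pass with the gene that fell, and a difference between neighbours was not tested.

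CD63 and CD81, the other common vesicle markers, kept overlapping groups too. CD63, which sits in late endosomes and lysosomes, was at 348, 355 and 447 CPM in the control and 331, 285 and 398 CPM in the knockdown libraries. CD81, an entry factor of hepatitis C virus, was at 143, 142 and 177 CPM against 138, 118 and 159 CPM. For CD63, CD81 and CD151 alike, control replicate 3 was the highest control and knockdown replicate 2 the lowest library of all. Their log2 fold changes were -0.18 ± 0.14, -0.16 ± 0.13 and -0.14 ± 0.13, and the smallest of their edgeR adjusted p-values was 0.383 (CD63). With knockdown replicate 2 alone, the library with the fewest fibroblast transcripts of its group, they were lower at -0.43, -0.40 and -0.39 (edgeR adjusted p = 0.0502, 0.0550 and 0.0569). Without control replicate 3 they were at -0.06, -0.05 and -0.03. The part of fibroblast transcripts in these values was not tested.

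All 5 of the broadly expressed CD-named members had a negative log2 fold change, as did 6835 of all 13896 genes tested. Past the threshold were 2 of the 5, against 17.3% of all genes. CD9, CD63, CD81, CD82 and CD151 together made up 69.6%, 69.9% and 71.5% of the tetraspanin counts of the controls and 66.7%, 63.5% and 67.3% of those of the knockdown. The groups did not overlap, and the widest 95% Wilson interval, that of knockdown replicate 2, ran from 63.0% to 64.1%, for counting error only. The summed level of all 31 genes was 1833, 1819 and 2132 CPM in the control and 1788, 1585 and 1976 CPM in the knockdown libraries, with overlap. The total of the 31 genes overlapped between the groups, while the share of these 5 genes did not. Within the 5, CD9 and CD82 had groups without overlap in CPM, and CD63, CD81 and CD151 overlapped. That is 2 of 5 without overlap, close to the 39.1% of all genes tested. The part of each gene in the difference of the share was not tested.

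The TspanC8 members carry 8 cysteines in the large loop and bring the protease ADAM10 to the cell surface. All 6 were tested, and none passed in the edgeR fit without a replicate block or in DESeq2, while 1, TSPAN15, had an unadjusted p under 0.05. In that edgeR fit 17.3% of all genes tested passed. With the replicate number as a block TSPAN15 passed (0.35 on the log2 scale, edgeR adjusted p = 0.00797). TSPAN15, which directs ADAM10 toward N-cadherin, was at 20.2, 18.8 and 22.8 CPM in the control and 26.9, 24.2 and 27.7 CPM in the knockdown libraries. These groups did not overlap, and at a log2 fold change of 0.35 ± 0.12 it lay just outside the threshold (edgeR adjusted p = 0.0662), as CD9 lay just inside. TSPAN14 was at 48.6 ± 1.92 and 54.2 ± 0.579 CPM, also without overlap (0.16 ± 0.10 on the log2 scale, edgeR adjusted p = 0.287). Groups without overlap were thus found in 2 of the 6, against 39.1% of all genes tested. The most abundant member, TSPAN17, was at 138 ± 9.86 and 137 ± 7.09 CPM (-0.02 ± 0.10, edgeR adjusted p = 0.920). TSPAN5, TSPAN33 and TSPAN10 overlapped between groups, and TSPAN10 was near the floor at 10 to 15 counts.

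ADAM10 itself was at 184 ± 17.9 and 223 ± 14.4 CPM, with all knockdown libraries above the controls but short of the threshold (0.28 ± 0.11, edgeR adjusted p = 0.0870). The related protease ADAM17 was at 66.7 ± 5.49 and 82.5 ± 9.14 CPM (0.31 ± 0.11, edgeR adjusted p = 0.0849). Of 8 tested genes for proteases and TspanC8 cargo 1 rose and 1 fell (25% called, against 17.3% of all genes tested). MMP14, a membrane collagenase, rose from 17.1 ± 0.656 to 29.9 ± 1.91 CPM (0.80 ± 0.11, edgeR adjusted p = 0.00126). CDH5, the cadherin of endothelium, fell from 1.51 ± 0.222 to 0.660 ± 0.201 CPM (-1.18 ± 0.34, edgeR adjusted p = 0.0333), a call that DESeq2 did not make (adjusted p = 0.0512). Omitting any 1 library except knockdown replicate 1 ended the edgeR call too (adjusted p up to 0.103). NOTCH1, NOTCH2, APP and CDH2 did not pass.

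The remaining numbered members were TSPAN3, TSPAN1, TSPAN2 and TSPAN18, of which none passed. TSPAN3 was well expressed at 89.0 ± 2.74 and 102 ± 10.9 CPM, with the groups just apart (0.19 ± 0.11 on the log2 scale, edgeR adjusted p = 0.229). TSPAN2, at 11, 4 and 10 counts against 10, 18 and 15, had overlapping groups and few counts. Its value of 0.69 ± 0.46 was the fifth largest positive one among the 31 genes (edgeR adjusted p = 0.308). TSPAN1, at 26, 36 and 48 counts against 49, 52 and 42, overlapped as well. Taking the 11 tested numbered genes outside TspanC8, 10 had a positive log2 fold change and TSPAN4 was the exception. Among all 13896 genes tested, 7061 were positive and 6835 negative. The 11 held 6 rises and 1 fall, where 9.71% of all genes were called higher and 7.58% lower.

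**Figure D4:**
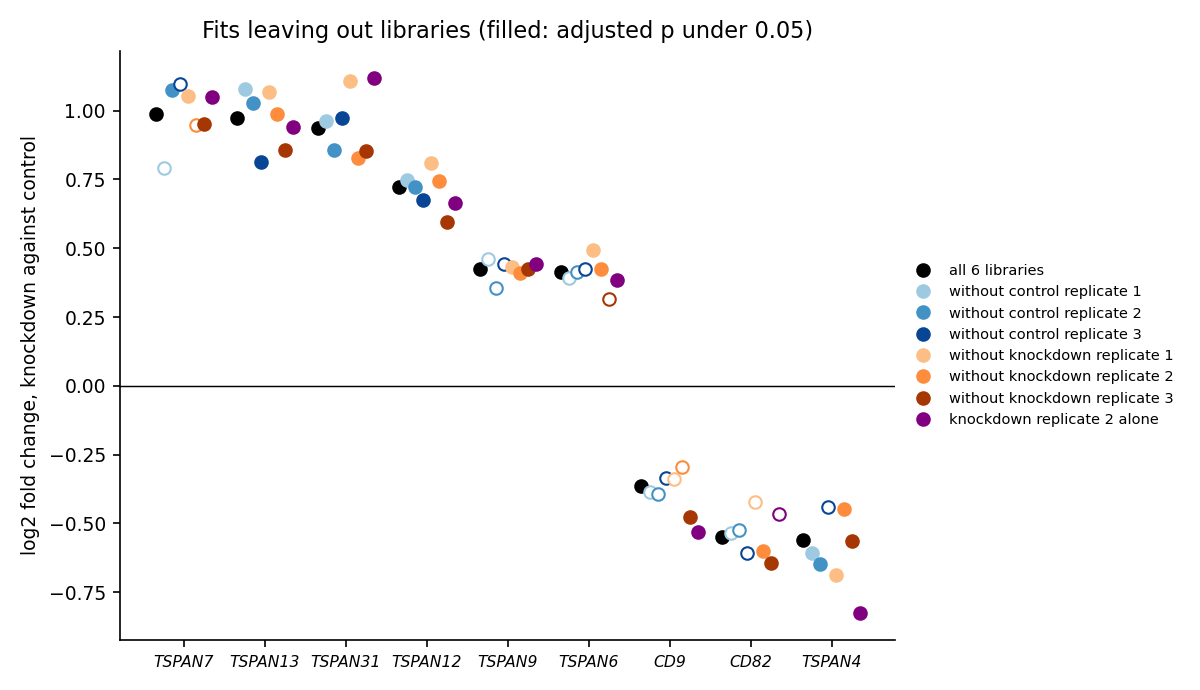
Log2 fold change of the 9 tetraspanin genes that passed, with all 6 libraries (black), with each library left out, and with knockdown replicate 2 alone (purple); filled points passed an edgeR adjusted p of 0.05. TSPAN13, TSPAN31 and TSPAN12 are filled throughout, whereas CD9 is filled among the omissions only for knockdown replicate 3, and no point crosses 0.

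Genes that work with tetraspanins were listed by role: uroplakins, integrins, adhesion partners, proteases and cargo, growth factor receptors and ligands, enzymes of the cytoplasmic face, and the machinery of vesicle release. Of 94 such genes 80 were tested, and 11 rose and 13 fell, or 24 in all (30.0%), against the 17.3% called among all genes. Their median log2 fold change was 0.12.

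The uroplakin UPK1A, a tetraspanin under another symbol, rose from a very low level, 0.412 ± 0.0681 to 1.38 ± 0.529 CPM (1.72 ± 0.40 on the log2 scale, edgeR adjusted p = 0.0141). Its call ended when control replicate 1 was omitted (edgeR adjusted p = 0.0625) and with knockdown replicate 2 alone (0.0660). UPK1B was at 4.92 ± 0.287 and 3.61 ± 0.685 CPM and did not pass (edgeR adjusted p = 0.141). UPK2, UPK3A and UPK3B, the partners of these 2 in the plaque, had 0 to 6 counts in a library.

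Among 10 tested integrin genes 1 rose and 1 fell, or 20% called, close to the 17.3% of all genes tested. ITGA6, a chain of the laminin receptors that CD151 binds, fell from 351 ± 27.4 to 266 ± 30.6 CPM (-0.40 ± 0.11, edgeR adjusted p = 0.0325). Omitting control 1, control 2 or knockdown 1 ended the call (edgeR adjusted p = 0.118, 0.103 and 0.0880), as did a fit with knockdown replicate 2 alone (-0.24, 0.159). ITGA2, the collagen receptor chain, rose from 11.4 ± 1.52 to 22.6 ± 7.94 CPM (0.99 ± 0.21, edgeR adjusted p = 0.0102), and knockdown replicate 2 was far above its fellows at 31.8 CPM. Without that library the log2 fold change was 0.66, and the call held. ITGB1, their common beta chain, was at 781 ± 97.4 and 849 ± 97.2 CPM with overlapping groups.

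Adhesion partners split, with 2 of 12 higher and 3 lower (41.7% called, against 17.3% of all genes tested). ICAM1, the ligand of leukocyte integrins, fell from 104 ± 6.19 to 42.0 ± 4.83 CPM (-1.31 ± 0.11, edgeR adjusted p = 0.000112). ADGRG1, an adhesion receptor that binds CD81, fell by 0.77 ± 0.13 on the log2 scale (edgeR adjusted p = 0.00309), and the immunoglobulin superfamily gene BSG by 0.38 ± 0.11 (0.0409). IGSF3 (0.58 ± 0.13, edgeR adjusted p = 0.0131) and the junction gene F11R (0.53 ± 0.11, edgeR adjusted p = 0.00767) rose. The calls of ICAM1, ADGRG1 and F11R held whichever library was left out. Omitting control 1 or 3 ended the call of IGSF3 (edgeR adjusted p = 0.0603 and 0.0594), and omitting control 1, 2, 3 or knockdown 2 ended that of BSG (0.103, 0.0588, 0.165 and 0.109). The main direct partners IGSF8 and PTGFRN did not pass (edgeR adjusted p = 0.347 and 0.152).

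Among 10 tested growth factor receptors and ligands 3 rose and 1 fell (40% called, against 17.3% of all genes tested). Beside FZD4, the receptor genes TGFBR1 (0.58 ± 0.10, edgeR adjusted p = 0.00419) and TGFBR2 (0.45 ± 0.11, edgeR adjusted p = 0.0209) rose. HBEGF, whose membrane-bound form associates with CD9, fell from 9.95 ± 1.21 to 5.94 ± 1.69 CPM (-0.74 ± 0.20, edgeR adjusted p = 0.0292). TGFBR2 no longer passed when control 1, control 3 or knockdown 2 was omitted (edgeR adjusted p = 0.0858, 0.0958 and 0.0573). HBEGF no longer passed when control 1, control 3, knockdown 2 or knockdown 3 was omitted (edgeR adjusted p = 0.109, 0.0730, 0.0668 and 0.0534), and its log2 fold change was -1.22 with knockdown replicate 2 alone. EGFR ran from 60.6 to 182 CPM within the knockdown group, and the groups overlapped.

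On the cytoplasmic side, 1 of 11 tested genes rose and 1 fell, or 18.2% called, close to the 17.3% of all genes tested. ARRB1, a beta arrestin, rose by 0.61 ± 0.10 on the log2 scale (edgeR adjusted p = 0.00293), and EZR, the ezrin that ties tetraspanins to actin, fell by 0.40 ± 0.10 (0.0185). EZR no longer passed when control 1, 2 or 3 was omitted (edgeR adjusted p = 0.0784, 0.0623 and 0.0550). ZDHHC2, an enzyme that palmitoylates CD9 and CD151, was at 49.2 ± 2.60 and 61.9 ± 6.49 CPM, with the groups apart and the threshold not reached (edgeR adjusted p = 0.0607).

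Of 27 tested vesicle genes 6 fell and 2 rose (29.6% called, against 17.3% of all genes tested), and their median was 0.03. RAB7A, the small GTPase that carries late endosomes to lysosomes, fell from 306 ± 10.4 to 176 ± 7.75 CPM, with little spread in either group (-0.80 ± 0.09, edgeR adjusted p = 0.000476). HGS, which sorts cargo into multivesicular bodies, fell from 118 ± 3.60 to 74.1 ± 17.2 CPM (-0.67 ± 0.14, edgeR adjusted p = 0.00995), and the syndecan SDC4 from 141 ± 4.18 to 99.96 ± 6.05 CPM (-0.50 ± 0.10, edgeR adjusted p = 0.00619). SDC1, VPS4A and RAB35 fell by 0.38, 0.43 and 0.47 on the log2 scale (edgeR adjusted p = 0.0365, 0.0177 and 0.0177). The calls of SDC1, VPS4A and RAB35 were not followed through the fits leaving out a library. SYTL4, an effector of RAB27 at secretion (0.55 ± 0.13, edgeR adjusted p = 0.0145), and RAB31 (0.43 ± 0.12, edgeR adjusted p = 0.0348) rose. RAB7A, HGS and SDC4 passed whichever library was left out. SYTL4 no longer passed when control 3 was omitted (edgeR adjusted p = 0.0691), nor RAB31 when control 1, 2, 3 or knockdown 2 was (0.0961, 0.0756, 0.139 and 0.116). SDCBP, TSG101 and PDCD6IP, the core of the syntenin route, did not pass, and FLOT1 was listed at 0 in every library. The counting tool and annotation are not given, so a 0 for FLOT1 need not mean absent transcription.

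**Figure D5:**
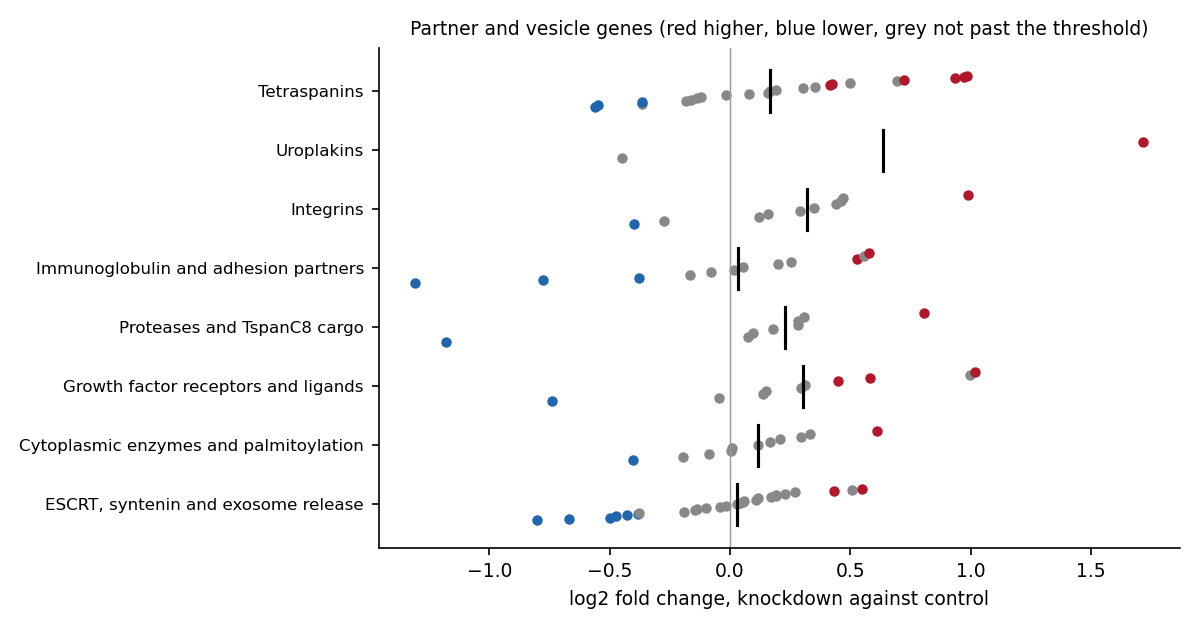
Log2 fold change, knockdown against control, of the tested tetraspanins and of the partner and vesicle genes by role; each point is a gene, red higher, blue lower and grey not past an edgeR adjusted p of 0.05, and black lines are medians. The tetraspanin median is 0.17 and that of the vesicle genes 0.03.

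The L6 family, whose proteins resemble tetraspanins in topology without belonging to them, also went both ways. TM4SF1 was at 1274 ± 76.3 and 1523 ± 263 CPM with overlapping groups. TM4SF18 rose by 0.35 ± 0.10 on the log2 scale (edgeR adjusted p = 0.0307), which did not pass when control 1, 2 or 3 was omitted (0.121, 0.110 and 0.101). TM4SF19 fell from 4.81 ± 0.671 to 2.40 ± 0.361 CPM (edgeR adjusted p = 0.01002), and its call held whichever library was omitted.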

How the data were processed

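RNA-seq counts of 6 T24 libraries were used. Per the submitters' processing notes, reads went through HISAT2 2.0.4 with GRCh38. Counting tool, annotation, strandedness and read filters: not given in the sources used here. Per gene symbol, the authors deposited whole counts without normalization, 1 column per library. Every column was used.

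The knockdown was compared with the control by edgeR's quasi-likelihood test (glmQLFit and glmQLFTest, robust; edgeR 4.0.16, R 4.3.3) after filterByExpr and TMM. P-values were Benjamini-Hochberg adjusted over the 13896 genes kept, and 0.05 was the threshold. Standard errors are the fold change on the log2 scale over the square root of F. CPM are on TMM-scaled library sizes of the tested genes. RPKM divide CPM by the joined exonic length of GENCODE release 29 on GRCh38, which also gave coordinates, matched by symbol. Promoters came from RefSeq on GRCh38.p14. The procedure was first checked on simulated data.

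The members and gene lists were chosen with earlier results of these data known. Every member is accounted for. Named with values are MTHFD2, members past the threshold, the highest level per length, the 5 largest rises and falls, the 2 most abundant members of a role group with no call, and up to 3 calls a direction of each partner list. Other genes are named as markers, overlapping neighbours, members of the same group or direct partners, after their values were seen. The alternatives were RLE scaling, DESeq2 1.42.0 (an adjusted p that it did not give was left out), other low-count filters, the replicate block, each library left out, knockdown replicate 2 alone and a threshold of 0.01. Reads carry no molecular identifiers, so intervals and floors describe counting error alone.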

Additional observations from a re-analysis of the deposited data

How the results depend on the processing

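Under RLE scaling, DESeq2, no low-count filter and a mean of at least 1 CPM, 9 tetraspanins passed each time, 6 higher and 3 lower. Scaling by RLE moved the median of all genes from 0.01 to 0.00 on the log2 scale. At a threshold of 0.01 there were 2 tetraspanins, 10 partner and vesicle genes and 749 genes in all. With knockdown replicate 2 alone, which takes the lone library to vary as the controls do, 8 tetraspanins and 4432 genes in all passed. Leaving out 1 library at a time gave 3 to 8 tetraspanins: 3 when control 3 was omitted, 4 for control 1 and 5 for control 2. Partner and vesicle genes gave 12 to 25 (12 for control 1, 13 for control 3), and all genes 986 to 2645 (986 for control 3, 1003 for control 1, 1469 for knockdown 2). These fits hold fewer libraries.

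Nothing in the labels pairs the replicate numbers, and not every pair correlated above 0.1: deviations from the group means correlated at -0.020, 0.295 and 0.351 for numbers 1, 2 and 3. Libraries numbered 2 and 3 correlated best with their own number, those numbered 1 did not (knockdown 1 with control 3, 0.047; control 1 with knockdown 2, 0.164). With the replicate block 10 tetraspanins passed, TSPAN15 being the added one (edgeR adjusted p = 0.00797), as did 38 partner and vesicle genes and 5062 genes in all.

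Followed through these fits were MTHFD2, the tested tetraspanins and up to 3 calls a direction of each partner list. Other named genes, such as EGFR and LRP5, were not followed. Among the genes followed 4 values changed sign, all far from the threshold. They were TSPAN33 with knockdown replicate 2 alone (-0.10) and TSPAN10 without control replicate 1 (-0.25 to 0.11). The others were TSPAN17 without control replicate 3 or knockdown replicate 2 (range -0.068 to 0.037 over the 6 libraries omitted, 0.02 for the latter). The cause was not tested. Depth limits the 8 untested genes and TSPAN2, TSPAN10, TSPAN18 and ROM1, each under 40 counts in every library.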
